A study of Drosophila melanogaster with 20 samples.

Results

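The Atg and Vps genes of Drosophila melanogaster were followed across 10 groups of wings and salivary glands. Members were all rows of the deposited matrix whose symbol begins with Atg or Vps followed by a digit, which gave 47 of 17606 genes, 20 Atg and 27 Vps. The rule uses the symbol alone, though the gene families were taken up with earlier results of these data known. RNA was sequenced in 20 libraries, 2 per group, from animals labelled female. EcRi wings and EcRi glands were taken at -30 and -6 h relative to puparium formation, and WT wings and WT glands at -30, -6 and +6 h. EcRi animals, yw/yw, carried Vg-GAL4 with UAS-Flp, the flip-out driver Tub>>CD2>>GAL4, the reporter UAS-GFP and the hairpin UAS-EcR-RNAi[104]. WT animals were +/+; +/+; +/+. In EcRi animals the GAL4 under vestigial regulatory DNA drives a recombinase, which opens a tubulin-promoter GAL4 that drives GFP and a hairpin against EcR, a subunit of the ecdysone receptor. WT animals carried none of these transgenes, so a difference between genotypes includes any difference between the lines. The -30 h animals were timed larvae, the -6 h animals wandering larvae and the +6 h animals staged from white prepupae. Each library pooled at least 60 wings or glands. Nothing in the labels tells if a group's 2 libraries were made from different animals, so p-values measure only the spread between libraries.

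Autophagy encloses cytoplasm in a double membrane and delivers it to the lysosome. The Atg1 kinase complex starts the process, Atg9 vesicles and the lipid transfer protein Atg2 build the membrane, a class III PI3 kinase marks it, and ubiquitin-like conjugation couples Atg8 to it. Vps genes, named after yeast mutants that missort vacuolar proteins, mostly act on endosomes: ESCRT complexes bud cargo inward, HOPS and CORVET tether membranes, retromer and GARP return cargo. Larval salivary glands secrete glue at the end of larval life, and autophagy genes act in the destruction of the gland after puparium formation.

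Levels are given as scaled RPM, the library-size normalised read count (RPM) divided by a TMM factor, for replicates 1 and 2 in that order. Changes are log2 fold changes of scaled RPM + 1 with the standard error of a limma fit over all 20 libraries, and are of the first named group over the second. A gene is said to have risen, fallen or changed only where the Benjamini-Hochberg adjusted p over 10172 genes was under 0.05 and the fold at least 2. In bulk tissue fewer cells of a type and less RNA per cell cannot be told apart.

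The libraries held 14949900 to 22626725 reads, at which 3 reads correspond to 0.133 to 0.201 RPM. Replicate 2 of the WT gland at -30 h stood apart, with 6354 genes with a read against 10996 in replicate 1. The median gene differed between the replicates of its group by 0.65 on the log2 scale, and by 0.129 to 0.286 in the 9 other groups, and 8 members were at 0 in it, against 1 in each of the other 19 libraries. EcR, the target of the hairpin, had 302 and 281 scaled RPM in EcRi glands against 278 and 301 in WT glands at -30 h, and 247 and 192 against 1319 and 1267 at -6 h. In wings EcR had 214 and 186 in EcRi against 348 and 315 in WT at -30 h, and 127 and 125 against 195 and 161 at -6 h. Of these differences the one in the gland at -6 h passed the test (-2.57 ± 0.14, limma with Benjamini-Hochberg adjustment, adjusted p = 1.12e-08), and it was -0.39 and not called in unscaled RPKM; the gland libraries labelled EcRi at -30 h had no lower EcR in scaled RPM, and in unscaled RPKM the difference was -0.70. Whether RNA of the hairpin adds to the EcR reads of EcRi libraries was not tested, so EcR levels are no sure measure of the knockdown. All 6 wing disc markers were detected, at a summed 903 to 1197 scaled RPM in wings and 22.6 to 47.8 in glands. The 8 gland markers summed to 1992 to 3670000 in glands and to 63.4 to 808 in wings, apart from WT wings at -6 h with 12500 and 8918. The 7 fat body markers were all detected in every gland group, at a sum of 2455 to 22970. They summed to 24.0 to 200 in wings apart from replicate 2 of the WT wing at -30 h, with 2590. Blood cell markers summed to at most 13.5 in any library, with eater at 0 in 6 groups. Trachea markers summed to 427 to 788 in wings and 37.5 to 136 in glands, and muscle and myoblast markers to 241 to 670 and 200.4 to 424.

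Glue genes held 68.7% and 74.8% of library reads in the WT gland at -6 h and at most 2.32% elsewhere. That group had small TMM factors, 0.252 and 0.198, and values without scaling run the other way for many members. The WT gland at +6 h also had small factors, 0.385 and 0.410, with 0.477% and 0.874% of its reads in glue genes. The cause of the small factors was not tested. In unscaled RPKM the median over all genes tested was -1.34 for -6 h over -30 h in WT glands, 1.94 for EcRi over WT glands at -6 h and 2.63 for WT wings over WT glands at -6 h, against 0.06, 0.16 and 0.09 after scaling. For WT wings over WT glands at +6 h it was 1.8 in unscaled RPKM and 0.3 after scaling, so comparisons with that gland group carry the same limit. The share of all Atg and Vps reads that a gene takes within a library needs no scaling. It is given as well for Atg13, Atg17, Atg8a, Atg4b and Vps13, but not for every gene whose direction depends on scaling. A share also moves with the other members, so a higher share alone does not show a rise. Vps13 took 22.1% and 17.5% of these reads in WT glands at -30 h, and 4.54% and 4.56% at -6 h.

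Of the 47 members 46 had reads and were tested, and Atg8b, a second Atg8 gene, had 0 reads in all 20 libraries. Counting was not stated to use strand, and 18 members share exonic bases with another gene. For Atg10 (50.1% of exonic bases shared, with Dgk and CG12822), Atg4a (51.4%, with CG4629), Vps24 (68.1%, with MP1 and asRNA:CR46140) and Vps11 (27.7%, with asRNA:CR45164) the values are uncertain for this reason.

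Per kilobase of exon, Atg8a, the ubiquitin-like protein coupled to the autophagic membrane, was the highest member in all 10 groups. It stood at 107 ± 16.2 scaled RPM per exonic kb in the WT gland at -30 h, 338 ± 83.8 at -6 h and 388 ± 67.9 at +6 h (SD, n = 2). In WT wings the same levels per kb were 51.6 ± 0.364, 61.3 ± 5.78 and 97.6 ± 4.44. At -6 h the next levels per kb in WT glands were those of Vps60 with 101 ± 21.0 and Vps20 with 85.5 ± 2.63, both ESCRT-III subunits, then Atg13 with 79.4 ± 18.0 and Atg17 with 63.4 ± 12.3, both of the Atg1 complex. The levels of Vps60, Vps20 and Atg13 did not differ beyond their spread. In wings the retromer subunits Vps26 and Vps29 followed Atg8a, at 27.5 ± 1.61 and 24.7 ± 1.76 per kb in the WT wing at -30 h. The lowest member with reads in every group was Atg10, the conjugating enzyme for Atg12, at no more than 0.966 ± 0.360 per kb.

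**Figure D1:**
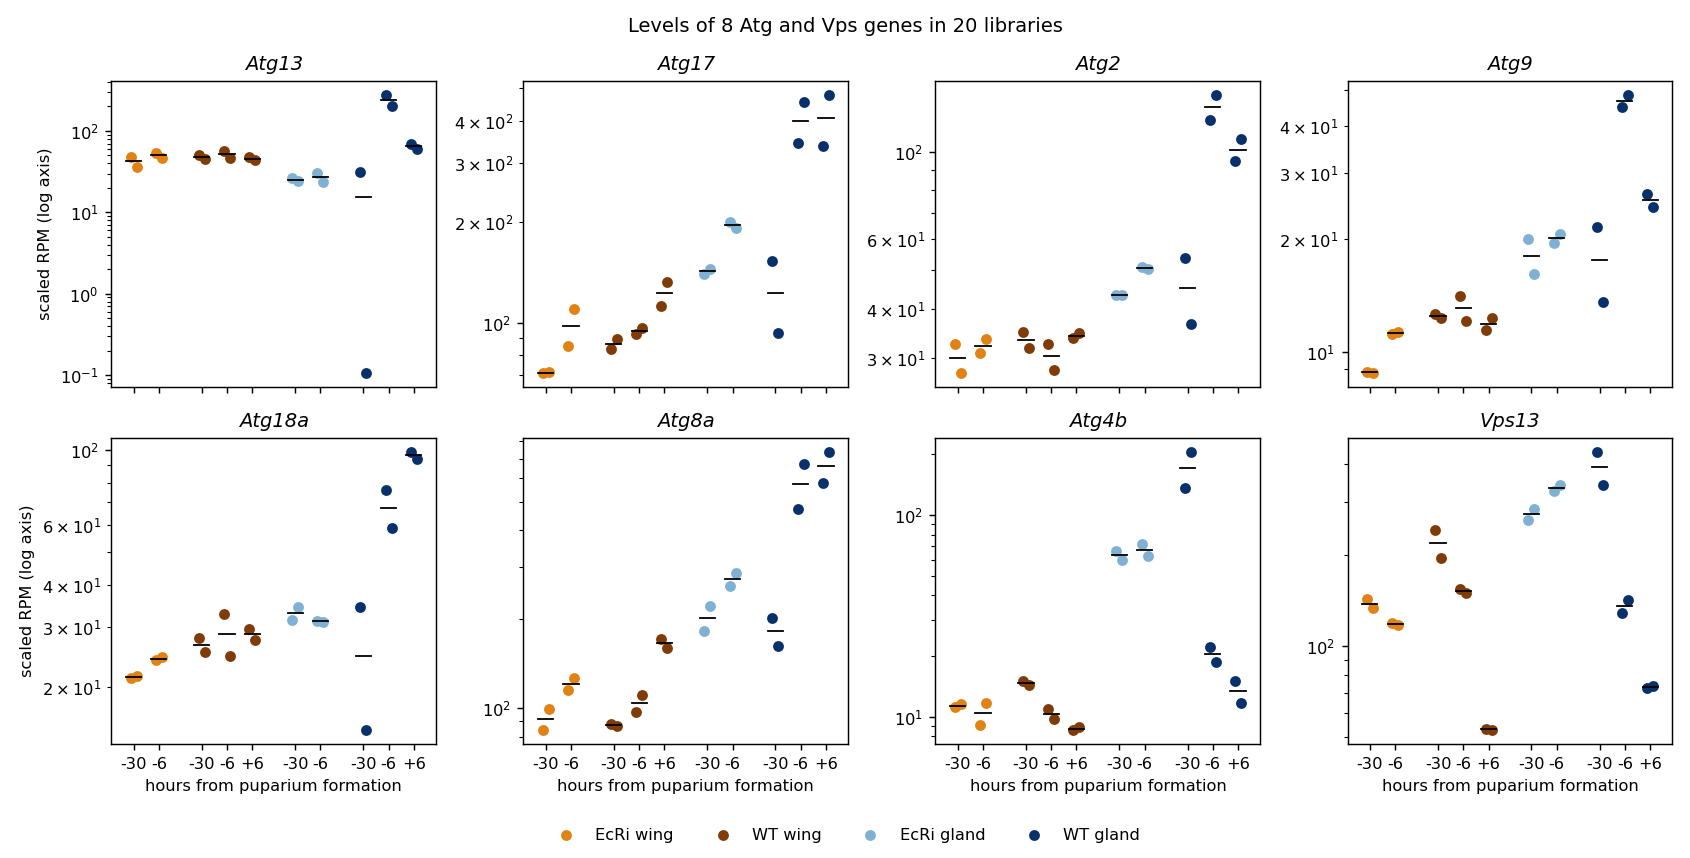
Scaled RPM (log axis) of 8 members in all 20 libraries, with EcRi wings, WT wings, EcRi glands and WT glands from left to right and times in order within each; points are libraries and bars are means. Atg13 stands highest in the WT gland at -6 h (277 and 200.1; not so in deposited RPKM) and Atg4b in the WT gland at -30 h (137 and 206).

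Between -30 and -6 h the WT gland passed into the wandering stage, and 19 of 46 members rose and 2 fell (41.3% and 4.35%), where 18.1% of all genes tested rose and 16.7% fell. The median change of the members was 0.64, against 0.06 over all genes tested. In unscaled RPKM 1 member rose and 27 fell, and the members' median of -1.51 lay near the -1.34 of all genes. All of the Atg9 and lipid transfer group rose (4 of 4), as did 2 of 4 genes of the Atg1 complex and 3 of 4 of GARP and EARP, but none of the 3 retromer genes. Without replicate 2 of the WT gland at -30 h, 2 of 4 rose in the Atg9 and lipid transfer group and 2 of 4 in GARP and EARP, with 2 of 4 again in the Atg1 complex. In that fit 15 members rose and the same 2 fell; 11 of the 15 were among the 19.

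Atg13, the regulatory subunit of the Atg1 kinase (FBgn0261108, dm6 chromosome 3R, 8349815 to 8352817, plus strand, a single exon), had 31.0 and 0.105 scaled RPM in WT glands at -30 h, 277 and 200.1 at -6 h and 68.6 and 60.6 at +6 h. The value of 0.105 is 2 reads in the library that stood apart. Both -6 h libraries lay above every other library of the series in scaled RPM and in their share of member reads, but below most wing libraries in deposited RPKM (23.2 and 13.2 in the WT gland at -6 h, 18.0 to 34.2 in wings). Atg13 rose by 5.31 ± 0.96 between -30 and -6 h (limma with Benjamini-Hochberg adjustment, adjusted p = 0.000401). Without the -30 h library at 2 reads the rise was 2.89 (limma, adjusted p = 1.1e-07). Of all Atg and Vps reads, Atg13 took 1.56% and 0.00537%, 9.76% and 6.43%, and 2.97% and 2.25% at the 3 times.

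Atg17, the scaffold of the same complex and FIP200 homologue (FBgn0037363, 3R, 5669713 to 5679930, plus strand, 6 exon blocks), had 153 and 93.1, 344 and 454, and 337 and 478 scaled RPM in WT glands at -30, -6 and +6 h. Its libraries at -6 and +6 h overlapped and lay above both at -30 h. The change from -30 to -6 h was 1.72 ± 0.22 (limma with Benjamini-Hochberg adjustment, adjusted p = 2.13e-05), and -0.63 in unscaled RPKM. Its share of member reads was 7.66% and 4.76%, 12.2% and 14.6%, and 14.6% and 17.7%. Atg1, the kinase itself, did not pass the test: it had 27.5 and 47.3, 41.0 and 32.2, and 57.7 and 64.7 scaled RPM at the 3 times. The -6 h libraries lay between those at -30 h (0.01 ± 0.27), with the +6 h libraries above both groups.

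Atg2, which moves lipid into the growing membrane, had 53.6 and 36.5, 120.0 and 139, and 94.9 and 107 scaled RPM in WT glands at -30, -6 and +6 h. The 3 times did not overlap. Atg2 rose by 1.52 ± 0.18 to -6 h, Atg9, the scramblase of the vesicles, by 1.40 ± 0.21, and Atg18a, a PI3P-binding WIPI protein, by 1.52 ± 0.28 (limma with Benjamini-Hochberg adjustment, adjusted p = 7.35e-06, 7.62e-05 and 0.000438). The related Atg18b had 6.45 and 0 at -30 h, 9.87 and 10.6 at -6 h and 7.12 and 11.3 at +6 h, and its rise of 2.04 ± 0.62 to -6 h rested on the 0. In unscaled RPKM the changes of Atg2, Atg9 and Atg18a to -6 h were -0.81, -0.90 and -0.79.

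Of the conjugation genes 4 of 9 tested rose and 1 fell. Atg8a (FBgn0052672, X, 10764878 to 10768338, minus strand, 5 exon blocks) had 201 and 162, 472 and 673, and 576 and 739 scaled RPM in WT glands at -30, -6 and +6 h. Its -6 and +6 h libraries overlapped, both groups above -30 h, and the rise to -6 h was 1.64 ± 0.18 (limma with Benjamini-Hochberg adjustment, adjusted p = 5.78e-06; -0.73 in unscaled RPKM). Atg8a took 10.1% and 8.31% of the member reads at -30 h, 16.7% and 21.6% at -6 h and 24.9% and 27.4% at +6 h. Atg5, part of the complex that places Atg8, rose by 1.24 ± 0.22, and Atg12, the ubiquitin-like protein bound to Atg5, by 1.86 ± 0.55.

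The 2 genes of the Atg4 protease, which trims Atg8 and releases it from membranes, went opposite ways. Atg4b (FBgn0038325, 3R, 15353720 to 15356924, minus strand, 6 exon blocks) had 137 and 206 scaled RPM in WT glands at -30 h, 22.2 and 18.6 at -6 h and 15.1 and 11.7 at +6 h. The -30 h libraries lay far above all others of the series, and Atg4b changed by -2.99 ± 0.21 to -6 h (limma with Benjamini-Hochberg adjustment, adjusted p = 6.97e-08). Its share of member reads was 6.86% and 10.6% at -30 h, 0.782% and 0.598% at -6 h and 0.651% and 0.435% at +6 h. Atg4a had 23.0 and 1.16, 52.0 and 40.9, and 33.2 and 25.3 scaled RPM at the same times. It rose by 2.71 ± 0.70 to -6 h, but by 0.98 without the library that stood apart, which is under 2-fold.

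Among Vps genes, 4 of 9 ESCRT genes rose. Vps60 had 40.9 and 33.6, 95.2 and 128, and 33.2 and 33.0 scaled RPM in WT glands at -30, -6 and +6 h. Vps37B, an ESCRT-I subunit, had 8.39 and 13.5, 30.3 and 34.5, and 13.2 and 11.8. Both were high at -6 h with no overlap with the other times, and rose by 1.55 ± 0.17 and 1.51 ± 0.23 (limma with Benjamini-Hochberg adjustment, adjusted p = 4.39e-06 and 9.16e-05; -0.79 and -0.76 in unscaled RPKM). Vps24, of ESCRT-III, had 28.6 and 0 at -30 h, 66.7 and 83.0 at -6 h and 44.9 and 67.3 at +6 h. Vps28, of ESCRT-I, had 11.6 and 0, 29.6 and 24.2, and 26.1 and 17.9. Their -6 h libraries lay above both -30 h libraries. Their rises of 3.79 ± 0.98 and 2.97 ± 0.75 were 1.35 and 1.14 without the library at 0, still past the test.

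Vps13, a lipid transfer protein at membrane contacts (FBgn0033194, 2R, 7566809 to 7580675, plus strand, 30 exon blocks), was the other member to fall. It had 441 and 342 scaled RPM in WT glands at -30 h, 129 and 142 at -6 h and 72.7 and 73.8 at +6 h. The 3 times did not overlap, and the change to -6 h was -1.51 ± 0.14 (limma with Benjamini-Hochberg adjustment, adjusted p = 6.27e-07). Vps13 took 22.1% and 17.5% of the member reads at -30 h, 4.54% and 4.56% at -6 h and 3.15% and 2.74% at +6 h. Its relatives Vps13B and Vps13D did not pass the test (-0.33 to -0.48 at -6 h over -30 h). Of the tethering genes Vps39 of HOPS alone rose, by 1.87 ± 0.71, with 12.7 and 9.89 at -6 h against 10.2 and 0 at -30 h, values that overlap. Of GARP and EARP, Vps50, Vps51 and Vps53 rose by 1.35 ± 0.23, 1.11 ± 0.27 and 1.76 ± 0.40 (-0.85, -1.12 and -0.41 in unscaled RPKM), and of the PI3 kinase genes Atg14 by 2.01 ± 0.49.

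Without replicate 1 of the WT gland at -6 h Atg18b (2.08) and Vps39 (1.70) were not called, and without replicate 2 Atg18b (1.99), Vps39 (2.03) and Atg12 (1.34) were not. Without replicate 2 of the WT gland at -30 h the rises of Atg12 (0.89), Atg14 (0.84), Atg18a (0.94), Atg18b (0.59), Atg4a (0.98), Vps39 (0.12), Vps51 (0.73) and Vps53 (0.96) were no longer called, and Atg6, Atg7, Vps20 and Vps52 were. When the fit held the 2 compared groups alone, 4 members were called higher and 2 lower, and the authors' deposited table gives 17 higher and 2 lower at the same thresholds, 15 and 2 of them shared. Fat body markers, 7 of 7 detected, summed to 8133 and 7413 scaled RPM at -6 h against 7582 and 4020 at -30 h. Muscle and myoblast markers (6 of 6) summed to 424 and 391 against 200.4 and 221, without overlap, and trachea markers (4 of 5, with Osi18 at 0) to 46.7 and 37.5 against 65.3 and 37.7. The part of these markers in the result was not tested.

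**Figure D2:**
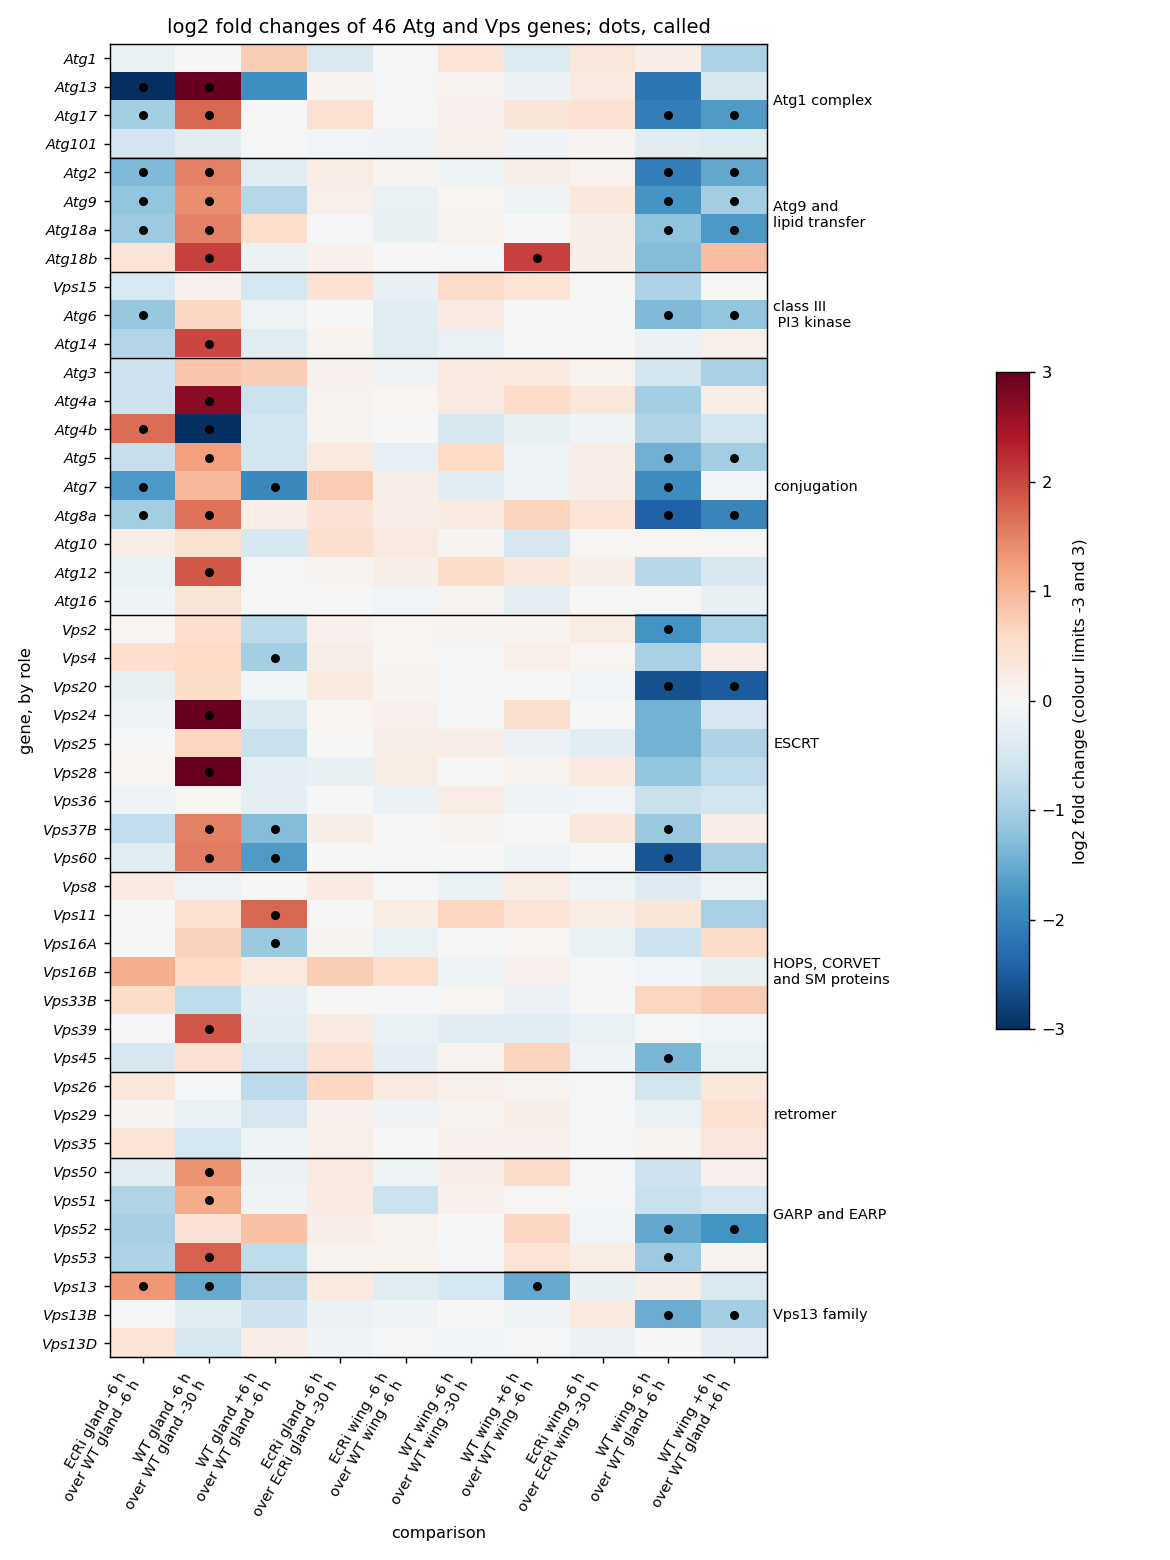
Log2 fold changes (colour, limits at -3 and 3) of the 46 tested members by role in 10 comparisons, with dots where a member was called. The WT gland -6 h over -30 h column holds 21 dots, and the column of EcRi wing over WT wing at -6 h holds none. In unscaled RPKM that WT gland column holds 1 higher and 27 lower.

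**Figure D3:**
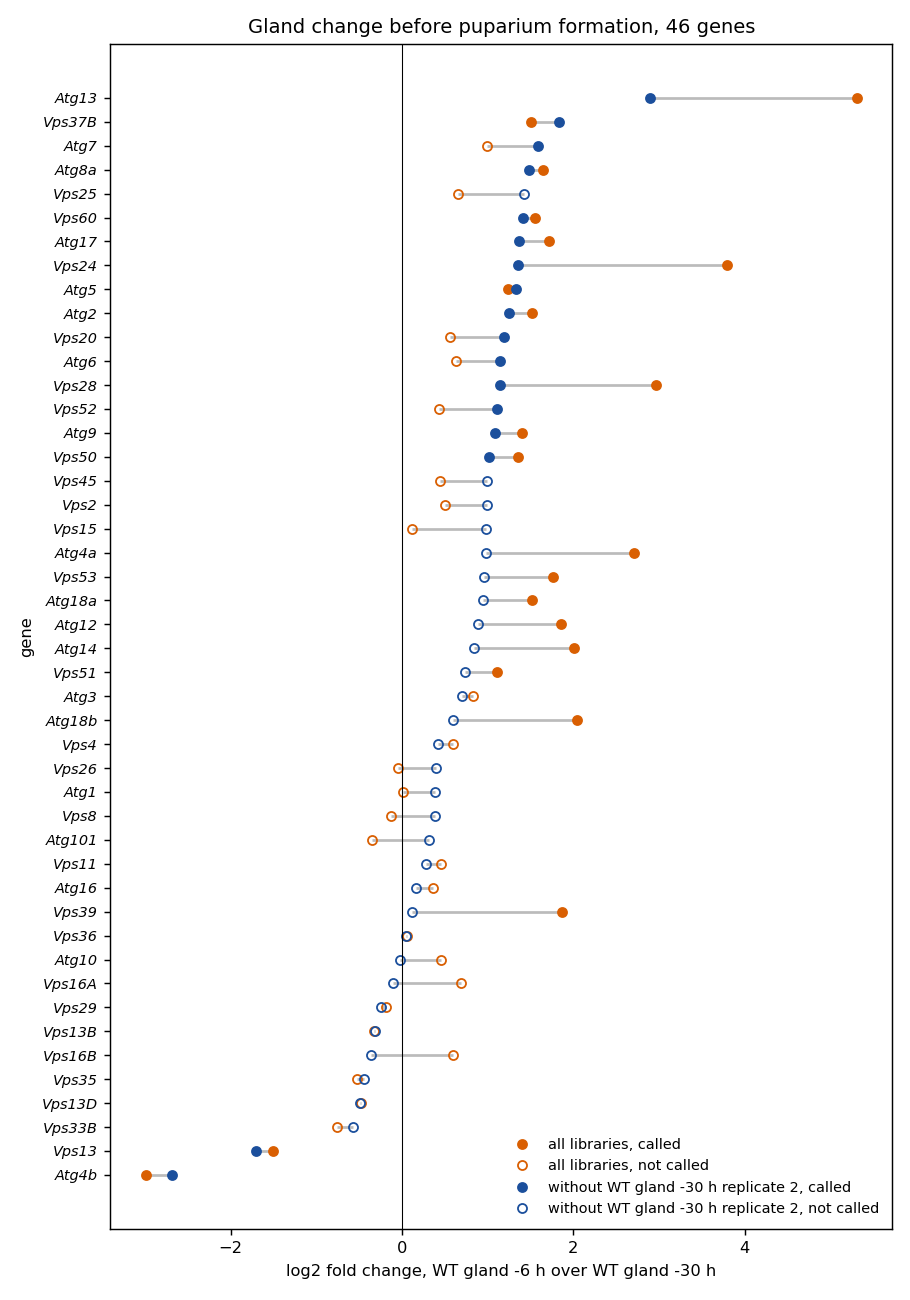
Log2 fold changes (x axis) of -6 h over -30 h in WT glands for the 46 tested members (y axis). Points are from the fit of all libraries (orange) and without replicate 2 of the -30 h group (blue), joined by a line. Filled points were called in that fit and open points were not. Atg13 moves to 2.89 where all libraries give 5.31.

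Between -6 and +6 h in WT glands 1 member rose and 5 fell (2.17% and 10.9%), where 13.7% of all genes tested rose and 16.3% fell. The members' median was -0.32, and -0.08 over all genes. In unscaled RPKM 6 members rose and none fell. Vps11, a core subunit of HOPS, had 13.3 and 10.2, 15.1 and 17.7, and 57.8 and 55.3 scaled RPM in WT glands at -30, -6 and +6 h. It was high at +6 h, apart from both earlier times, and rose by 1.73 ± 0.21 (limma with Benjamini-Hochberg adjustment, adjusted p = 1.13e-05). Atg7, the E1-like enzyme of both conjugation reactions, had 6.88 and 17.1, 27.0 and 19.1, and 5.40 and 4.98 at the same times. It was low at +6 h, with the -6 h libraries highest, and the change was -1.94 ± 0.36 (limma with Benjamini-Hochberg adjustment, adjusted p = 0.000501).

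The other genes that fell to +6 h were Vps60 (-1.71 ± 0.17), then just below its -30 h libraries, Vps37B (-1.30 ± 0.23), then within the range of its -30 h libraries, the AAA ATPase Vps4 (-1.01 ± 0.14) and the tethering subunit Vps16A (-1.11 ± 0.38). Atg13 stood at 68.6 and 60.6 at +6 h against 277 and 200.1 at -6 h without overlap, but did not pass the test in the fit of all libraries (-1.85 ± 0.96, limma with Benjamini-Hochberg adjustment, adjusted p = 0.146). It did when replicate 2 of the WT gland at -30 h, no part of this comparison, was left out of the fit (limma, adjusted p = 8.64e-07); 1 member then rose and 6 fell. Median-of-ratios scaling gave 2 higher and 3 lower. Vps16A was not called when any of the 4 libraries was left out (-1.08, -1.14, -1.14 and -1.08 without -6 h replicates 1 and 2 and +6 h replicates 1 and 2), nor Vps4 without replicate 1 of either time (-0.93 each). In this comparison 3 members fell without replicate 1 at -6 h and 2 rose without replicate 2 at -6 h. Fat body markers (7 of 7 detected) summed to 2744 and 2455 at +6 h against 8133 and 7413 at -6 h, trachea markers to 136 and 101 against 46.7 and 37.5, both without overlap, and muscle and myoblast markers to 401 and 415 against 424 and 391. Their part was not tested. The authors' deposited table gives 1 higher and 3 lower, all shared.

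Few members changed in WT wings over the same times. Between -30 and -6 h limma called 0 of 46 members in either direction, with 4 at an unadjusted p under 0.05, where 5.31% of all genes changed; voom and the authors' deposited table also gave 0. Between -6 and +6 h 1 member rose and 1 fell (2.17% each), where 10.6% of all genes tested rose and 6.06% fell. Vps13 had 243 and 196, 155 and 149, and 53.0 and 52.6 scaled RPM in WT wings at -30, -6 and +6 h. The +6 h libraries were the lowest, and Vps13 changed by -1.51 ± 0.14 (limma with Benjamini-Hochberg adjustment, adjusted p = 1.5e-06). It took 20% and 17.3%, 13% and 12.7%, and 4.34% and 4.20% of member reads.

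Atg18b had 4.29 and 3.23, 4.40 and 2.83, and 18.2 and 17.6 scaled RPM in WT wings at -30, -6 and +6 h. The +6 h libraries lay above all earlier ones, and the change from -6 h was 2.05 ± 0.62 (limma with Benjamini-Hochberg adjustment, adjusted p = 0.0255). The call was lost without -6 h replicate 1 (2.30) or 2 (1.81) and without +6 h replicate 1 (2.03) or 2 (2.07), at adjusted p = 0.0673 to 0.151 in limma. Atg8a had 87.9 and 87.0, 97.0 and 111, and 171 and 160 scaled RPM at the 3 times. Its +6 h libraries were the highest, but the difference from -6 h of 0.67 ± 0.18 was under 2-fold. Atg1 and Atg13 kept within 29.4 to 42.3 and 44.0 to 57.5 in all 6 WT wing libraries. Muscle and myoblast markers summed to 670 and 662 at +6 h against 334 and 345 at -6 h, and trachea markers to 586 and 701 against 427 and 502, without overlap; their part was not tested.

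EcRi glands at -6 h were set against WT glands of the same time to ask which of these levels differ when EcR is targeted. Of 46 members 8 fell and 2 rose (17.4% and 4.35%), where 9.76% of all genes tested fell and 17.2% rose. All 8 that fell were Atg genes, of 19 tested, and 0 of 27 Vps genes fell. Whether the families differ in this was not tested. The members' median was -0.20, and 0.16 over all genes; in unscaled RPKM 33 members rose and 0 fell, at a median of 1.87 against 1.94 over all genes. Genes that fell came from the Atg1 complex (Atg13, Atg17), the Atg9 and lipid transfer group (Atg2, Atg9, Atg18a), the PI3 kinase (Atg6) and conjugation (Atg7, Atg8a). Atg4b and Vps13 rose.

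Atg13 had 30.3 and 23.7 scaled RPM in EcRi glands at -6 h, against 277 and 200.1 in WT glands. The EcRi libraries lay at about the level of EcRi glands at -30 h, 26.1 and 24.4. The change against WT was -3.09 ± 0.96 (limma with Benjamini-Hochberg adjustment, adjusted p = 0.0203), and Atg13 took 1.33% and 1.06% of member reads in EcRi against 9.76% and 6.43% in WT. When any 1 of the 4 compared libraries was left out the adjusted p was 0.0584 to 0.1, while leaving the -30 h WT library at 2 Atg13 reads out of the shared fit gave 5.67e-09.

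Atg8a had 258 and 287 scaled RPM in EcRi glands at -6 h, against 472 and 673 in WT glands. The groups did not overlap, the change was -1.05 ± 0.18 (limma with Benjamini-Hochberg adjustment, adjusted p = 0.000409), and the share of member reads was 11.4% and 12.8% in EcRi against 16.7% and 21.6% in WT. Atg17 had 200.4 and 192 in EcRi against 344 and 454 in WT (-1.01 ± 0.22), with shares of 8.82% and 8.55% against 12.2% and 14.6%. Atg2 had 51.0 and 50.3 in EcRi against 120.0 and 139 in WT, again apart, at -1.33 ± 0.18. Atg9 was at -1.18 ± 0.21, Atg18a at -1.08 ± 0.28 and Atg6, the Beclin homologue of the PI3 kinase, at -1.13 ± 0.39. Atg7 had 5.88 and 6.56 in EcRi against 27.0 and 19.1 in WT (-1.72 ± 0.36), so EcRi glands at -6 h lay near WT glands at +6 h.

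Atg4b had 71.6 and 62.8 scaled RPM in EcRi glands at -6 h, against 22.2 and 18.6 in WT glands. Vps13 had 327 and 342 in EcRi against 129 and 142 in WT. Both were high in EcRi without overlap and rose by 1.67 ± 0.21 and 1.30 ± 0.14 (limma with Benjamini-Hochberg adjustment, adjusted p = 2.38e-05 and 3.93e-06). They took 3.15% and 2.80%, and 14.4% and 15.3%, of member reads in EcRi, against 0.782% and 0.598%, and 4.54% and 4.56%, in WT. Atg1 had 38.2 and 26.1 in EcRi against 41.0 and 32.2 in WT, and Atg4a 32.1 and 27.4 against 52.0 and 40.9. Atg1 overlapped and Atg4a did not, and neither passed the test.

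Of these calls, Atg17 (-0.81), Atg8a (-0.79), Atg6 (-0.83) and, as above, Atg13 were lost without replicate 2 of the WT gland at -6 h, and Atg18a (-0.89) without replicate 1. Without replicate 2 of the EcRi gland at -6 h Atg17 (-0.98) and Atg6 (-1.0) were lost, and without replicate 1 Atg8a (-0.97) and Atg6 (-1.26). Counts that fell were 4 without that WT replicate 2 and 5 without EcRi replicate 2. In unscaled RPKM Atg17, Atg8a, Atg9, Atg6, Atg2, Atg18a and Atg7 had positive changes, 0.27 to 1.15. The authors' deposited table gives 10 lower, these 8 with Vps51 and Vps52, and the same 2 higher. Without WT gland -30 h replicate 2 in the fit the same 8 fell, and Vps16B rose besides Atg4b and Vps13. Fat body markers (7 of 7) summed to 5757 and 9549 in EcRi and 8133 and 7413 in WT, overlapping ranges. Muscle and myoblast markers (6 of 6) summed to 263 and 271 in EcRi against 424 and 391 in WT, and trachea markers (4 of 5, with Osi18 at 0) to 67.9 and 69.4 against 46.7 and 37.5, both without overlap. Their part was not tested.

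**Figure D4:**
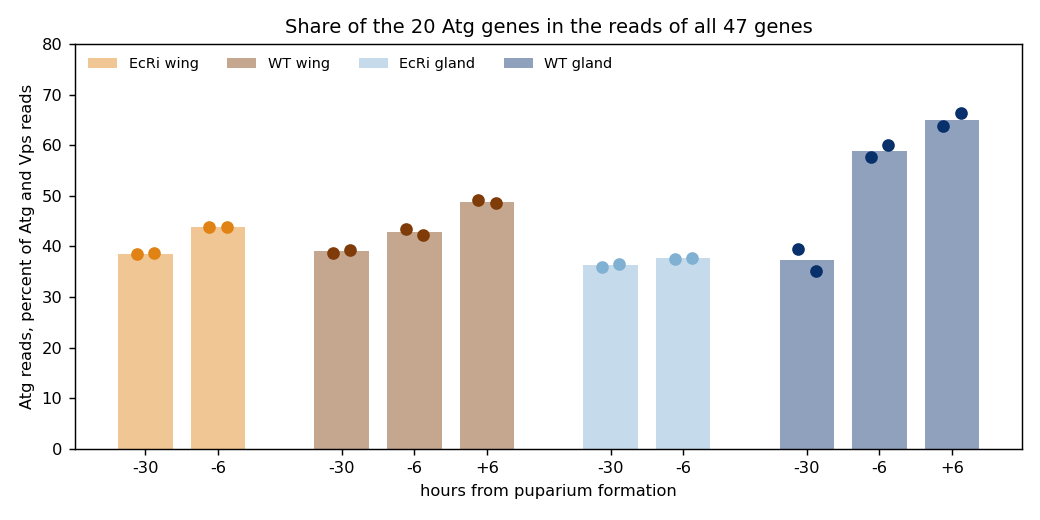
Atg reads as a percent of all Atg and Vps reads in each library (points) with group means (bars), EcRi wings, WT wings, EcRi glands and WT glands from left to right. The share needs no scaling and stands at 37.6% and 37.8% in EcRi glands at -6 h, against 57.7% and 60.1% in WT glands. Vps13 alone took 14.4% and 15.3% of these reads in the EcRi group, against 4.54% and 4.56% in the WT group.

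The Atg genes together took 39.4% and 35.1% of the Atg and Vps reads in WT glands at -30 h, 57.7% and 60.1% at -6 h and 63.8% and 66.3% at +6 h. In EcRi glands they took 37.6% and 37.8% at -6 h and 36.0% and 36.6% at -30 h, all between 35.1% and 39.4%, the span of the WT glands at -30 h. The 35.1% is from replicate 2, the library that stood apart, and every EcRi gland value lay below the 39.4% of replicate 1. In WT wings the share was 38.7% and 39.3%, 43.5% and 42.3%, and 49.1% and 48.5% at -30, -6 and +6 h. In EcRi wings it was 43.9% and 43.9% at -6 h and 38.5% and 38.6% at -30 h, close to WT wings of the same times. With 2 libraries a group an exact permutation test cannot go below a 2-sided p of 0.333, so these shares are given without a test.

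In EcRi glands limma called 0 of 46 members between -30 and -6 h, with 2 at an unadjusted p under 0.05, where 4.4% of all genes changed; voom and the authors' deposited table also gave 0, and unscaled RPKM 1 higher. Atg13 had 30.3 and 23.7 at -6 h against 26.1 and 24.4 at -30 h, and Atg4b 71.6 and 62.8 against 66.5 and 60.1. Both pairs differed by less than 0.10 in log2. Tested directly, the -30 to -6 h change differed between EcRi and WT glands for 13 members, 11 lower and 2 higher in EcRi (23.9% and 4.35%), where 12.3% of all genes were lower and 14.3% higher. The difference was -5.23 ± 1.35 for Atg13 (-2.80 without replicate 2 of the WT gland at -30 h), -1.20 ± 0.26 for Atg8a, -1.30 ± 0.25 for Atg2, -1.55 ± 0.24 for Vps60, 3.07 ± 0.30 for Atg4b and 1.81 ± 0.19 for Vps13. Without that library 9 were lower and 3 higher, 7 and 2 of them shared; without replicate 1 of the same group 19 were lower and 4 higher. Atg8a was not called without WT gland -6 h replicate 2 (-0.95). In unscaled RPKM 35 were higher and 0 lower.

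At -30 h EcRi glands had 4 members higher and 2 lower than WT glands (8.7% and 4.35%), where 10.2% of all genes rose and 3.38% fell. Vps24 had 50.1 and 88.5 scaled RPM in EcRi against 28.6 and 0 in WT, Vps28 28.2 and 37.7 against 11.6 and 0, and Atg18b 11.4 and 13.4 against 6.45 and 0. Each was apart from WT, where the second library is at 0. The rises were 3.64 ± 0.98, 3.24 ± 0.75 and 2.29 ± 0.62, and 1.20, 1.41 and 0.84 without that library, the last not called. Vps60 had 83.4 and 92.4 in EcRi against 40.9 and 33.6 in WT and rose by 1.22 ± 0.17 (limma with Benjamini-Hochberg adjustment, adjusted p = 0.000266). Atg4b, with 66.5 and 60.1 in EcRi against 137 and 206 in WT, changed by -1.40 ± 0.21 (limma, adjusted p = 0.000523).

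Atg7 had 4.15 and 2.54 scaled RPM in EcRi glands at -30 h, against 6.88 and 17.1 in WT glands, and changed by -1.48 ± 0.36; it was not called without WT replicate 2 (-0.88) or EcRi replicate 2 (-1.21). Without EcRi replicate 2 the rises of Vps24 (3.23), Vps28 (3.04) and Atg18b (2.19) were also lost, leaving 1 member higher and 1 lower. Atg18b was also not called without EcRi replicate 1 (2.40). Without WT replicate 1, which leaves the library that stood apart as the sole WT sample, 15 were higher and 7 lower. With the 2 compared groups alone in the fit no member was called in either direction. The authors' deposited table gives Vps60 higher and Atg4b and Atg7 lower. Fat body markers (7 of 7) summed to 15720 and 22970 in EcRi, against 7582 and 4020 in WT, muscle and myoblast markers to 422 and 246 against 200.4 and 221, and trachea markers to 93.8 and 104 against 65.3 and 37.7. None of these 3 sums overlapped, and their part was not tested.

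In EcRi wings, where EcR reads were under 2-fold lower (-0.73 ± 0.14 at -30 h and -0.49 ± 0.14 at -6 h), no member was called against WT wings. At -30 h limma called 0 of 46 members, with 5 at an unadjusted p under 0.05, where 2.2% of all genes changed, and at -6 h 0, with 2, where 1.78% changed. Voom and the authors' deposited table also gave 0 at both times, as they did for -6 h over -30 h in EcRi wings (0 in limma, 1 at an unadjusted p under 0.05, 3.1% of all genes changed). Vps13 had 142 and 133 scaled RPM in EcRi wings against 243 and 196 in WT wings at -30 h, and 119 and 117 against 155 and 149 at -6 h. It was lower in EcRi without overlap at both times, but under 2-fold (-0.66 ± 0.14 and -0.36 ± 0.14). Atg13 had 48.3 and 36.0 in EcRi against 49.98 and 45.6 in WT at -30 h, and 54.3 and 46.8 against 57.5 and 46.2 at -6 h, overlapping at both. Gland markers, 8 of 8 detected, summed to 92.6 and 78.9 in EcRi wings at -6 h against 12500 and 8918 in WT wings. At the same time trachea markers summed to 788 and 780 in EcRi against 427 and 502 in WT, and muscle and myoblast markers to 416 and 440 against 334 and 345, without overlap; their part was not tested.

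The effect of EcR-RNAi at -6 h was tested for a difference between tissues, wing minus gland. It was higher for 4 members and lower for 2 (8.7% and 4.35%), where 8.38% of all genes were higher and 13.3% lower, so the number that was higher is at the background share. Values were 1.91 ± 0.50 for Atg7, 1.42 ± 0.25 for Atg2, 1.26 ± 0.26 for Atg8a, 1.05 ± 0.32 for Atg17, -1.67 ± 0.30 for Atg4b and -1.66 ± 0.19 for Vps13 (limma with Benjamini-Hochberg adjustment, adjusted p = 2.65e-05 to 0.0250). Without WT gland -30 h replicate 2 in the fit Atg13, Vps52 and Vps53 were called too. Atg17 was not called without WT wing -6 h replicate 1 (1.02) or 2 (1.07), EcRi wing replicate 2 (0.87), WT gland replicate 2 (0.85) or EcRi gland replicate 1 (1.08) or 2 (1.02), nor Atg7 without WT gland replicate 1 (1.67). Unscaled RPKM turned the sign of the 4 that were higher.

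In WT tissue at -30 h wings had 3 members higher and 9 lower than glands (6.52% and 19.6%), where 18.8% of all genes were higher and 12.1% lower. At -6 h 0 were higher and 16 lower (34.8%; 25.3% and 19.2% of all genes), and at +6 h 0 and 10 (21.7%; 30.8% and 16.5%). The authors' deposited table gives 1 higher and 7 lower at -30 h, 0 and 21 at -6 h and 0 and 17 at +6 h, which hold 1 and 7, 0 and 16, and 0 and 10 of the calls given here. The members' medians were -0.36, -0.96 and -0.47, against 0.14, 0.09 and 0.30 over all genes. In unscaled RPKM 12, 33 and 20 members were higher and 3, 0 and 0 lower at the 3 times, and the members' median less that of all genes was -0.51, -0.72 and -0.68, against -0.50, -1.05 and -0.77 after scaling. The lower sign relative to the median gene was shared by both scales. Both scales use the same reads, so the shared sign is no separate support. They also differ in pseudocount, 0.1 for RPKM and 1 for scaled RPM, and the offset was not kept in every comparison. For -6 h over -30 h in WT glands the same offset was -0.17 in unscaled RPKM and 0.58 after scaling.

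Vps20 had 10.8 and 13.8 scaled RPM in WT wings against 33.0 and 80.6 in WT glands at -30 h, 11.2 and 12.3 against 78.5 and 75.2 at -6 h, and 11.5 and 12.4 against 67.7 and 77.1 at +6 h. Wings were lower without overlap at each time (-1.99 ± 0.30, -2.61 ± 0.30 and -2.50 ± 0.30, limma with Benjamini-Hochberg adjustment, adjusted p = 0.000115, 4.85e-06 and 6.73e-06). Atg8a, with the wing and gland levels given above, was lower in wings at each time (-1.04 ± 0.18, -2.43 ± 0.18 and -1.97 ± 0.18). Values were -1.82 ± 0.17, -1.5 ± 0.17 and -1.01 ± 0.17 for Vps13B, a large Vps13 relative, and, for Vps52 of GARP, -1.12, -1.54 and -1.80 ± 0.36; these 4 members were lower at all 3 times with all libraries. At -30 h Atg8a was not called without gland replicate 1 (-0.88), nor Vps52 without wing replicate 1 (-1.1) or 2 (-1.15), nor, at +6 h, Vps13B without wing replicate 2 (-0.98) or gland replicate 1 (-0.96). Unscaled RPKM turned all 16 signs at -6 h.

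At -6 h Vps60 had 16.5 and 19.3 in WT wings against 95.2 and 128 in WT glands, and Atg2 32.6 and 27.9 against 120.0 and 139. Both were far lower in wings (-2.56 ± 0.17 and -2.06 ± 0.18). At +6 h Vps52 had 17.6 and 22.4 in wings against 61.1 and 84.0 in glands, and Atg18a 29.7 and 27.4 against 98.8 and 94.0 with -1.72 ± 0.28 for Atg18a. At -30 h Atg4b had 14.97 and 14.4 in wings against 137 and 206 in glands, at -3.43 ± 0.21. Retromer genes were not called at any time (-0.76 to 0.46).

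The 3 members higher in wings at -30 h were Atg13 (3.04 ± 0.96), Atg14 (2.04 ± 0.49) and Vps39 (2.14 ± 0.71). Atg13 had 49.98 and 45.6 in wings against 31.0 and 0.105 in glands, Vps39 14.4 and 13.2 against 10.2 and 0, and Atg14 21.8 and 20.9 against 11.2 and 1.42. All 3 were apart, with the second gland library lowest, and without it none was called (0.61, 0.39 and 0.87). Vps15 (-0.53), Vps2 (-0.89), Vps45 (-0.48) and Vps52 (-0.45) were then not called either, and Vps13 was, which left 0 higher and 6 lower. Leaving out WT wing replicate 1 or 2 left 1 member higher, with Atg13 (2.97 and 3.10) and Vps39 (2.08 and 2.20) lost, and leaving out WT gland replicate 1 gave 10 higher. Without wing replicate 2 5 were lower, and Vps15 (-1.27), Vps45 (-0.94) and Vps60 (-0.95) were among those lost; Atg8a (-0.88) and Vps60 (-0.89) were lost without gland replicate 1. At -6 h and +6 h, with that -30 h gland library out of the fit, 22 and 10 were lower. Fat body markers summed to 24.0 to 2590 in wings and 2455 to 22970 in glands, without overlap over the groups except for WT wing -30 h replicate 2; their part was not tested.

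The change between -6 and +6 h differed between WT wings and WT glands for 7 members, wing minus gland, 5 higher and 2 lower (10.9% and 4.35%), where 16.8% of all genes were higher and 10.2% lower. Vps60 (1.57 ± 0.24), Vps37B (1.32 ± 0.33), Vps4 (1.17 ± 0.20), Atg7 (1.80 ± 0.50) and Vps45, an SM protein of membrane fusion (1.17 ± 0.41), were higher. In wings Vps60 stood at 16.5 and 19.3 at -6 h and 16.2 and 16.0 at +6 h, which differ by little, while in glands it fell. Vps11 (-1.34 ± 0.29) and Atg1 (-1.14 ± 0.38) were lower. Unscaled RPKM turned Vps45 and Vps4 to -0.07 and -0.16. Vps45 was not called when any of the 8 libraries was left out (1.03 to 1.31), nor Atg1 without any but gland replicate 1 at -6 h (-0.97 to -1.23), which left 1 lower each time. Atg7 was lost without wing -6 h replicate 2 (1.69), gland -6 h replicate 1 (1.56) or wing +6 h replicate 1 (1.58), each leaving 3 higher. With WT gland -30 h replicate 2 out of the fit 10 were higher and the same 2 lower.

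Other genes of the pathway, from a list of 34 of which 33 matched and were tested, were counted in the same comparisons. Between -30 and -6 h in WT glands 18 rose and 0 fell (54.5% and 0%), where 18.1% of all genes rose and 16.7% fell. Without replicate 2 of the -30 h group 17 of the 18 rose, and TSG101 did not (0.63). Their median was 1.08, against 0.06 over all genes. In unscaled RPKM 1 rose and 18 fell, at a median of -1.26 against -1.34 over all genes. Uvrag, a partner of the PI3 kinase, had 11.5 and 16.1 scaled RPM at -30 h, 192 and 136 at -6 h and 21.4 and 16.7 at +6 h. It was high at -6 h alone, with 18.2 and 16.9 in EcRi glands of that time. Its changes were 3.47 ± 0.25 for -6 h over -30 h, -3.03 ± 0.25 for +6 h over -6 h and -3.13 ± 0.25 for EcRi over WT at -6 h, and 1.19, -2.22 and -1.03 in unscaled RPKM. Hrs, the ESCRT-0 subunit that gathers ubiquitinated cargo, had 49.6 and 11.1, 197 and 204, and 91.9 and 88.2 at the 3 times in WT glands. Rab7, the GTPase of late endosomes, had 54.5 and 32.3, 236 and 268, and 177 and 158. Both were highest at -6 h and rose to it by 3.03 ± 0.42 and 2.55 ± 0.20 (0.72 and 0.21 in unscaled RPKM). The rises were 1.99 for Hrs and 2.18 for Rab7 without replicate 2 of the -30 h group.

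Of that list 7 fell and 1 rose between -6 and +6 h in WT glands (21.2% and 3.03%, where 16.3% of all genes fell and 13.7% rose), and 2 fell and 7 rose in unscaled RPKM. In EcRi against WT glands at -6 h 6 fell and 1 rose (18.2% and 3.03%, where 9.76% of all genes fell and 17.2% rose), while in unscaled RPKM 1 fell and 29 rose. The 6 were Uvrag, scat (-1.92 ± 0.23), a GARP subunit, Vamp7 (-1.56 ± 0.23), a SNARE of fusion with the lysosome, Lamp1 (-1.21 ± 0.16), a lysosomal membrane protein, lsn (-1.09 ± 0.30), of ESCRT-II, and Rab7 (-1.03 ± 0.20). Apart from Uvrag their signs turned in unscaled RPKM, to 0.22 for scat, 0.58 for Vamp7, 0.95 for Lamp1, 1.02 for lsn and 1.13 for Rab7. Mvb12, of ESCRT-I, rose in both comparisons (1.17 ± 0.18 for EcRi over WT and 1.37 ± 0.18 for +6 h over -6 h). At -30 h EcRi glands had 4 genes higher than WT glands (12.1%, where 10.2% of all genes were higher): CHMP2B (2.10 ± 0.27), Hrs (2.08 ± 0.42), TSG101 (1.49 ± 0.48) and shrb (1.38 ± 0.21). These encode ESCRT subunits, and no listed gene was lower. When replicate 2 of the WT gland was left out, TSG101 was not called (0.28), Hrs was 1.04, shrb 1.06 and CHMP2B 2.35, and Chmp1 (1.26), of ESCRT-III, and ref(2)P (1.02), the p62 homologue, were called too. Marker sums differed between these groups as given above. In WT wings limma called 0 between -30 and -6 h and, in EcRi over WT wings, 0 at either time. Between -6 and +6 h 3 rose in WT wings (9.09%, where 10.6% of all genes rose; 0 in unscaled RPKM), a share no higher than that of all genes: Syx17 (1.30 ± 0.34), the SNARE of autophagosomes, Rab7 (1.21 ± 0.20) and Rab5 (1.05 ± 0.20), the GTPase of early endosomes.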

How the data were processed

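Total RNA from wings and salivary glands was sequenced in 20 libraries (Tecan Universal RNA-Seq kit, per the labels). Genome build dm6 is given in the submitters' processing notes, with the tools SAMtools 1.9, STAR 2.7.3a and DESeq2. The tool and strand setting of the counting are not given in the sources used here. The authors deposited a matrix of RPKM, in which the length of 14356 of 14370 genes equals the gene span with introns, and a table of their own comparisons with log2 fold changes, p-values and adjusted p-values. The mean signal per gene in the authors' deposited table (counts scaled by size factors, per the file headers) served only to find the gene length behind each RPKM. The recovery of reads, and so the levels and tests, rests on these lengths.

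Values in the deposited RPKM are whole multiples of 1 read: all 65361 low values tested, those of at most 20 reads, were whole to within 0.1 read. Reads were recovered from these steps and, of 17606 genes, 4 held no values and 2372 were at 0 throughout. RPM were divided by TMM factors (trims of 30% and 5%, written out in R), and limma 3.58.1 in R 4.3.3 was fitted to log2(scaled RPM + 1), which understates the change of low genes, with trend and robust priors (10 residual degrees of freedom, median prior 3.42). Fold changes of genes at 0 depend on the pseudocount of 1. Genes with at least 0.558 scaled RPM in 2 libraries and 15 reads in total were kept, which left 10172, and p-values were adjusted over them in each of 16 comparisons. The TMM scaling and limma fit were tested on simulated data with the same spread for all genes. Those data held no group that differed in its glue share and no library like the one that stood apart. The recovery of reads was not part of that test. Tables and plots were made in Python 3.11.15 with pandas 2.3.3 on numpy 2.4.6, matplotlib 3.10.9 and scipy 1.17.1. Limits from a count of 0 (3 reads) cover counting error only.

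Members and gene lists were chosen with earlier results of these data known. Values per library are given for Atg1, Atg8a, Atg13, Atg4a and Atg4b in WT glands and, in part, in the other groups. Atg8b had no reads. They are also given, in each comparison, for up to 4 called members with the largest fold that reach 5 scaled RPM. A few others were added after their values were seen. Several comparisons share the WT gland libraries at -6 h, so their values stand side by side and are not independent. Groups share replicate numbers, but the labels do not say that a number pairs libraries. Alternatives were median-of-ratios scaling, unscaled RPKM, pseudocounts of 0.25 and 4, no filter, no fold minimum, voom, a replicate block, the compared groups alone and leaving out each library. TMM without glue and 71E genes, and leaving replicate 2 of the WT gland at -30 h out of comparisons it is no part of, were chosen after seeing the data. Coordinates are from the dm6 annotation. No genome sequence was used, and a planned count of promoter motifs was not run.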

Additional observations from a re-analysis of the deposited data

Results flagged for a closer look

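The effects below differed between genotypes or tissues by a test of the difference itself in the limma fit, with adjusted p under 0.05 and at least 2-fold. The change from -30 to -6 h in the gland, EcRi minus WT, was lower in EcRi for Atg13 (-5.23), Vps28 (-3.19), Vps53 (-1.66), Atg18a (-1.59), Vps60 (-1.55), Vps37B (-1.33), Atg2 (-1.30), Atg17 (-1.26), Atg9 (-1.25), Atg8a (-1.20) and Vps50 (-1.07), and higher for Atg4b (3.07) and Vps13 (1.81). Without replicate 2 of the WT gland at -30 h Atg17 (-0.91), Atg9 (-0.93), Vps50 (-0.74) and Vps53 (-0.86) were not called, Atg13 was -2.80 and Vps28 -1.36. Vps28 was also not called when any one of the EcRi gland libraries or the -6 h WT gland libraries was left out (-2.98 to -3.40). Vps53 was lost in 5 of those 6 fits (-1.44 to -1.83) and Vps50 in 4 besides its loss without the -30 h library (-0.92 to -1.09).

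The effect of EcR-RNAi at -6 h, wing minus gland, was higher for Atg7 (1.91), Atg2 (1.42), Atg8a (1.26) and Atg17 (1.05) and lower for Atg4b (-1.67) and Vps13 (-1.66). The change from -6 to +6 h in WT tissue, wing minus gland, was higher for Atg7 (1.80), Vps60 (1.57), Vps37B (1.32), Vps4 (1.17) and Vps45 (1.17) and lower for Vps11 (-1.34) and Atg1 (-1.14). As given above, fits without 1 library lost Atg17 and Atg7 in the EcR-RNAi test, and Vps45, Atg1 and Atg7 in the test of the change to +6 h. Unscaled RPKM turned the sign of all the higher genes in the EcR-RNAi test, and of Vps45 and Vps4 in the other. The 3 tests share the WT gland libraries at -6 h, the glue-rich group.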

How the results depend on the processing

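Of 109 called member values all 109 kept their call under TMM without glue and 71E genes, under the replicate block and without a fold minimum, 105 with a pseudocount of 0.25, 104 without a filter, 102 under median-of-ratios scaling, 96 with voom, 92 with a pseudocount of 4 and 71 with the compared groups alone; none of these reversed. With the replicate block 19 members rose and 2 fell between -30 and -6 h in WT glands, as without it, and no other count or call changed. The correlation of same-numbered libraries' deviations ran from -0.04 to 0.427. Over the fits that left out 1 library, 478 values kept their call and 119 lost it. The cause of these differences was not tested.

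Unscaled RPKM kept 22 calls, lost 32 and reversed 55. The reversed changes for -6 h over -30 h in WT glands were Atg17 -0.63, Vps37B -0.76, Atg14 -0.02, Vps51 -1.12, Vps50 -0.85, Atg5 -1.03, Atg8a -0.73, Atg9 -0.90, Atg2 -0.81, Vps60 -0.79, Atg18a -0.79 and Vps53 -0.41. For EcRi over WT glands at -6 h they were Atg17 1.15, Atg7 0.27, Atg8a 1.11, Atg9 0.93, Atg6 0.91, Atg2 0.80 and Atg18a 1.05. For WT wings over WT glands at -6 h they were Atg17 0.91, Vps37B 1.80, Vps52 1.35, Vps2 1.12, Vps13B 1.43, Atg7 0.86, Atg5 1.43, Atg8a 0.54, Atg9 1.12, Vps45 1.46, Vps20 0.27, Atg6 1.49, Atg2 0.87, Vps60 0.35, Atg18a 1.72 and Vps53 1.78. For WT wings over WT glands at +6 h they were Vps13B 0.59, Atg5 0.52, Atg9 0.52, Atg6 0.33 and Atg2 0.07. For the gland time change, EcRi minus WT, they were Atg17 1.62, Vps37B 1.47, Vps50 1.65, Atg8a 1.69, Atg9 1.58, Atg2 1.55, Vps60 1.32, Atg18a 1.24 and Vps53 1.03. For the EcR-RNAi effect, wing minus gland, they were Atg17 -1.15, Atg7 -0.09, Atg8a -0.94 and Atg2 -0.76. For the change to +6 h, wing minus gland, they were Vps45 -0.07 and Vps4 -0.16. Counts in unscaled RPKM, higher and lower, were 1 and 27 for -6 h over -30 h in WT glands, 6 and 0 for +6 h over -6 h, 1 and 10 for EcRi over WT glands at -30 h, 33 and 0 at -6 h, 12 and 3, 33 and 0, and 20 and 0 for wings over glands at -30, -6 and +6 h, 35 and 0 for the gland time change, 0 and 29 for the EcR-RNAi effect between tissues and 0 and 13 for the change to +6 h between tissues. WT wings to +6 h then had 0 higher and EcRi glands over time 1 higher.

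Without a fold minimum 5 fell in WT glands to -6 h, 3 rose and 11 fell to +6 h, 1 fell in WT wings to -6 h, 2 rose to +6 h, 4 rose and 13 fell in EcRi glands at -6 h, 1 fell in EcRi wings at -30 h, and wings over glands had 15 lower at -30 h, 1 higher at -6 h, and 1 higher and 18 lower at +6 h. With the compared groups alone the counts were 4 higher in WT glands to -6 h, 0 and 0 in EcRi glands at -30 h, 0 higher and 3 lower for wings over glands at -30 h, 3 lower for the gland time change, 7 higher for the EcR-RNAi effect and 10 higher for the change to +6 h between tissues. Voom gave 1 lower in EcRi glands at -30 h, 5 higher for wings over glands at -30 h, 1 lower for the EcR-RNAi effect between tissues, and 2 higher and 0 lower for the change to +6 h between tissues. Median-of-ratios scaling gave 2 higher and 3 lower in WT glands to +6 h and 3 higher for the change to +6 h between tissues, where no filter gave 1 lower. A pseudocount of 0.25 gave 0 higher in WT wings to +6 h, and 4 gave 6 lower for wings over glands at +6 h.

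Leaving out 1 library gave 15 to 21 higher and 2 to 3 lower in WT glands to -6 h, 1 to 2 and 3 to 6 to +6 h, 0 to 1 and 1 in WT wings to +6 h, 1 to 15 and 1 to 7 in EcRi glands at -30 h, and 2 to 3 and 4 to 8 at -6 h. Wings over glands had 0 to 10 higher and 5 to 12 lower at -30 h, 0 and 14 to 22 at -6 h and 0 and 9 to 11 at +6 h. The gland time change had 2 to 4 and 8 to 19, the EcR-RNAi effect between tissues 3 to 7 and 2, and the change to +6 h between tissues 3 to 10 and 1 to 2. The other counts, all 0, stayed 0. A lone library left in a group was assumed to vary like the other groups. Depth limits low members such as Atg10, Vps16B, Atg12 and Atg18b.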
